A study of Mus musculus with 24 samples.

Results

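Rapamycin was given to mice in which *Tsc1* had been deleted from Camk2a-expressing neurons, and hippocampal RNA was read on day 13. The comparison holds 8 of the 24 mice of the series: 4 *Tsc1-Cre+* mice treated with rapamycin (*Tsc1-Cre+*-Rap 4) and 4 *Tsc1-Cre+* mice that received no drug, all taken on day 13 after induced deletion. Every mouse carried *Tsc1* with both alleles floxed (*Tsc1* f/f), and every mouse received tamoxifen. Cre-positive mice carried the *Camk2a-CreERT2* transgene, in which *Camk2a* regulatory sequence drives a tamoxifen-dependent Cre, so the gene stays intact in cells that do not express the transgene. Rapamycin was given at 10 mg/kg daily from day 4. A further 4 mice without Cre (*Tsc1-Cre-*), taken on day 8, served as the reference level and are called controls. In a difference from control, the day of collection therefore cannot be told apart from genotype or drug. No group received vehicle, so the drug and the injections cannot be told apart, and no Cre-negative group received rapamycin.

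TSC1 and TSC2 form a complex that keeps the small G protein RHEB inactive, and active RHEB switches on the kinase complex mTORC1. mTORC1 promotes protein, lipid and nucleotide synthesis, partly through the transcription factors ATF4, SREBP and HIF1A, and it restrains autophagy. Rapamycin binds FKBP12, and this pair inhibits mTORC1. Neurons without *Tsc1* therefore have high mTORC1 activity, and mice of this kind develop seizures.

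Total counts ran from 38423852 to 126435936 in the day 13 mice and from 28208561 to 54924199 in the rapamycin mice, a difference that an exact permutation test over the 70 arrangements did not separate from the spread (two-sided p = 0.314). The share of counts from the mitochondrial genome was 3.69 to 5.21% on day 13 and 4.53 to 6.12% under rapamycin (two-sided exact permutation p = 0.143). *Ttr*, which marks the choroid plexus, varied from 13.4 to 349 CPM (counts scaled to a common library total with TMM factors) on day 13 and from 5.69 to 465 CPM under rapamycin. Markers of the labelled tissue were present in all 8 mice, with 108 to 175 CPM of *Prox1* (dentate granule cells) and 70.7 to 161 CPM of *Wfs1* (CA1 neurons). Day 13 mice A and B stood apart from mice C and D in glial and matrix genes, and the same split was seen in *Xist*, the RNA of the inactive X, which was 2.00 and 1.53 CPM in mice A and B and 810 and 816 CPM in mice C and D. Total counts split the same way, with 69971957 and 126435936 in day 13 mice A and B and 38423852 and 41101425 in mice C and D. Rapamycin mice A and B had 1016 and 1034 CPM of *Xist* and mice C and D had 2.19 and 3.05 CPM, so the day 13 and rapamycin groups each held 2 mice of each kind, while the controls held 1 with low and 3 with high *Xist*. With *Xist* as a covariate 5244 genes differed between rapamycin and day 13 (edgeR adjusted p under 0.05 and a log2 fold change over 0.5 in size), beside 5123 without it, and 3321 between day 13 and control, beside 4101 without it. Results that rest on day 13 mice A and B are given with and without them, except for the remaining shares defined below. Those shares were calculated with single mice left out and not without both mice.

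The targeted gene was checked first. *Tsc1* was at 109.5, 103, 106 and 103 CPM in the controls, at 57.5, 59.02, 68.9 and 68.9 CPM in the day 13 mice and at 66.3, 66.0, 68.1 and 68.95 CPM in the rapamycin mice (A to D in each group). Every Cre-positive mouse was below every control, and the Cre-positive groups overlapped with each other (log2 fold change of rapamycin over day 13 0.09 ± 0.09, edgeR adjusted p = 0.437). The *Tsc1* counts cover whole tissue, including cells that do not express the transgene, and the source of the remaining reads was not measured.

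Rapamycin and untreated day 13 mice differed widely. Of 24274 genes tested by edgeR's quasi-likelihood test, 5123 (21.1%) passed both thresholds (Benjamini-Hochberg adjusted p under 0.05, and a log2 fold change beyond 0.5 in either direction) and are said to be called, of which 2412 (9.94% of those tested) were higher and 2711 (11.2%) lower under rapamycin. The values of the 4 mice of one group did not overlap with those of the other in 7946 genes (32.7%). Day 13 mice against controls gave 4101 called genes of 24920 (16.5%), with 2093 higher (8.4%) and 2008 lower (8.06%). Rapamycin mice against controls gave 352 of 25006 (1.41%), with 93 higher (0.372%) and 259 lower (1.04%). The rapamycin level lay near control in 13898 genes (55.6%), meaning that the 95% interval of its log2 fold change against control was wholly within 0.5 in either direction. The median absolute log2 fold change was 0.34 for rapamycin against day 13, 0.32 for day 13 against control and 0.13 for rapamycin against control. These comparisons share mice, so their values are set side by side and their overlap is no result.

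The median log2 fold change over all genes tested was 0.02 for rapamycin against day 13, -0.04 for day 13 against control and 0.01 for rapamycin against control, and the medians of gene lists below are to be read beside these. Counts of called members are likewise to be read beside the shares of all genes called, 9.94% higher and 11.2% lower for rapamycin against day 13. For each list the text gives the members called in each direction, counted in every comparison over the members that passed edgeR's filter on low counts in rapamycin against day 13 (800 of 824 list entries). It also gives the mean over members of log2(CPM + 0.5), relative to the controls, called the list level. Where all 4 day 13 mice lay on the same side of all 4 controls, the remaining share is the mean rapamycin list level as a percent of the mean day 13 list level. A share of 0 means control level and 100 means no change from day 13. A negative value means that the rapamycin mean lay on the other side of the control mean, where single mice may still overlap with the controls. The log2 fold changes moved with the GC content of the genes (Spearman -0.231 across 24229 genes, which are not independent replicates), and with a correction for GC content 4601 genes were called for rapamycin against day 13, beside 5123 without it.

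**Figure D1:**
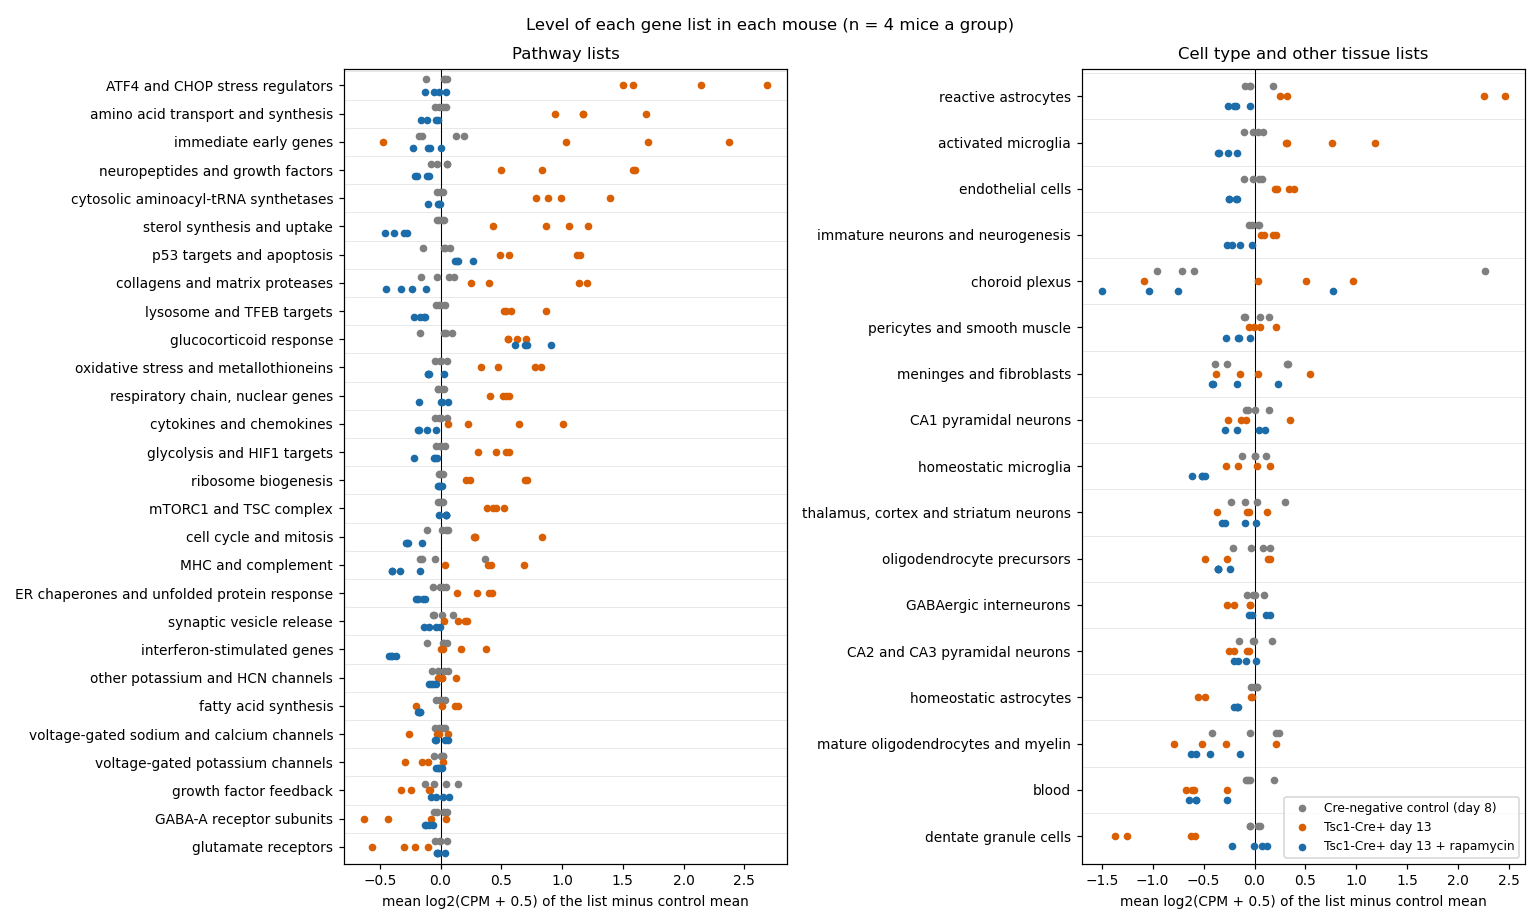
List level of each gene list in each of the 12 mice, in log2 units relative to the control mean, with 1 point per mouse and groups by colour. The stress, amino acid and tRNA synthetase lists of the rapamycin mice lie close to the controls, the sterol and lysosome lists sit below them, and the glucocorticoid list stays at the day 13 level.

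Genes of the ATF4 pathway had the largest median rise of the 45 lists on day 13, and under rapamycin their list level overlapped with the controls. ATF4 and CHOP are transcription factors of the integrated stress response, which cells start when amino acids are short or protein folding fails, and mTORC1 also raises the amount of ATF4. Of 14 tested genes of the ATF4 and CHOP list, 13 were lower under rapamycin than on day 13 and 0 higher, with a median log2 fold change of -2.35. All 14 were higher on day 13 than in control (median 2.21), and 0 were called by edgeR in rapamycin mice against control (7 at an unadjusted p under 0.05, median -0.05). Of the 14, 5 lay near control, beside 55.6% of all genes. The list level of the day 13 mice was 2.14, 2.69, 1.58 and 1.5, against 0.05, -0.05, -0.02 and -0.13 in the rapamycin mice. The remaining share was -1.96% (-4.03 to -0.412% when single mice were left out).

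*Chac1*, which degrades glutathione in this response, was at 31.04, 66.4, 22.5 and 25.2 CPM in the day 13 mice and at 1.87, 2.49, 1.67 and 1.22 CPM in the rapamycin mice, beside 1.75 to 2.32 CPM in the controls. The rapamycin and control values interleaved, and every day 13 mouse was far above both (log2 fold change of rapamycin over day 13 -4.3 ± 0.38, edgeR adjusted p = 1.92e-04). *Trib3*, a pseudokinase that CHOP induces, was at 5.86, 13.2, 2.24 and 5.43 CPM on day 13 and at 0.284 to 0.416 CPM under rapamycin (-4.38 ± 0.51, edgeR adjusted p = 5.43e-04). *Atf3*, another factor of the response, varied more on day 13, with 43.02, 19.5, 13.9 and 2.36 CPM, and lay at 0.287 to 0.508 CPM under rapamycin. Its lowest day 13 mouse, D, was still above every rapamycin mouse (log2 fold change -5.67 ± 0.79, edgeR adjusted p = 0.00109). *Nupr1*, a stress-induced chromatin protein, was raised only in day 13 mice A and B (8.23, 21.5, 1.36 and 1.42 CPM), and its log2 fold change of -2.81 went to -0.26, not called, without these mice.

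Amino acid supply genes and tRNA synthetases, many of them known ATF4 targets, were also lower under rapamycin. Of 23 tested genes of amino acid transport and synthesis, 17 were lower under rapamycin (median log2 fold change -0.95) and 0 higher, and 19 lay near control. *Slc7a3*, a transporter of cationic amino acids, was at 47.1, 93.6, 42.2 and 61.4 CPM on day 13 and at 3.09, 2.35, 3.39 and 2.62 CPM under rapamycin, beside 2.57 to 3.65 CPM in the controls. All 4 day 13 mice were more than 10 times the highest rapamycin mouse (log2 fold change -4.41 ± 0.26, edgeR adjusted p = 9.63e-05). *Mthfd2*, a mitochondrial enzyme of folate metabolism, was at 29.01 to 55.9 CPM on day 13 and 4.69 to 5.41 CPM under rapamycin (-2.97 ± 0.19, edgeR adjusted p = 9.63e-05), and *Psph*, which makes serine, was at 47.02 to 85.7 CPM on day 13 and 9.73 to 11.7 CPM under rapamycin (-2.48 ± 0.17, edgeR adjusted p = 9.63e-05). *Aldh1l2*, a second mitochondrial folate enzyme, ranged from 13.4 to 80.98 CPM on day 13, with mouse C lowest, and was 4.06 to 5.28 CPM under rapamycin (log2 fold change -3.07). The remaining share of the list was -6.48% (-8.12 to -4.37% when single mice were left out).

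The 20 cytosolic aminoacyl-tRNA synthetases load amino acids onto their tRNAs. All 20 were tested, 17 were lower under rapamycin than on day 13 (median log2 fold change -1.09), 16 were higher on day 13 than in control, and all 20 were near control under rapamycin. The rapamycin and day 13 mice did not overlap in any of the 20 genes, beside 32.7% of all genes tested without such overlap. *Aars* was at 344, 497, 319 and 401 CPM on day 13 and at 129.6, 119, 119.7 and 109.6 CPM under rapamycin, beside 127, 123, 119 and 122 CPM in the controls, so that the rapamycin and control mice formed 1 narrow range (log2 fold change of rapamycin over day 13 -1.69 ± 0.13, edgeR adjusted p = 1.16e-04). *Cars*, *Gars* and *Sars* had log2 fold changes of -1.88, -1.59 and -1.46. The remaining share was -3.38% (-4.32 to -1.12% when single mice were left out).

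The promoters of 3 genes of the stress list are shown because the transcription factor of this pathway has a known recognition sequence. The letters searched were TGATGNAA, the ATF4 composite element, on both strands of the 300 bases around each RefSeq start (GRCm38.p6, 250 before and 50 after). It was found in 4 of 14 stress genes (28.6%), in 4 of 17 amino acid genes with a promoter in the table (23.5%) and in 5 of 12 tRNA synthetase genes (41.7%), beside 1219 of all 27025 genes (4.51%). These lists hold known ATF4 targets, so the shares describe the lists and are no result of these data. The capitals mark the match, which stands here as its complement TTGCATCA, on the strand of the gene.
Atf3: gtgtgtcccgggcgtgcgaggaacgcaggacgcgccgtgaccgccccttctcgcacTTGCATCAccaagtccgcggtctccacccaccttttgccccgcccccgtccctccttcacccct
Chac1: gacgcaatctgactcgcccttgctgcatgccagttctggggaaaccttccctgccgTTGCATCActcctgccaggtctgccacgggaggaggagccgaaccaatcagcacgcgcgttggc
Nupr1: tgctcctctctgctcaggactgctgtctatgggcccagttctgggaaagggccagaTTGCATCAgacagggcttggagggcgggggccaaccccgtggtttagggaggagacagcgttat
The stretch of *Atf3* is chr1:191183380-191183499 on the minus strand (GRCm38.p6), upstream of the start. The stretch of *Chac1* is chr2:119350993-119351112 on the plus strand (GRCm38.p6), upstream of the start. The stretch of *Nupr1* is chr7:126625517-126625636 on the minus strand (GRCm38.p6), upstream of the start. The match lies 110, 193 and 110 bases before the start of *Atf3*, *Chac1* and *Nupr1*. A match is a run of letters and no measurement of binding. *Chac1* was high in all 4 day 13 mice and *Nupr1* in 2 of 4, with the same letters in both promoters.

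Genes of the mTORC1 pathway itself moved less. Of 24 tested members, 8 were lower under rapamycin, 0 higher, and 21 lay near control. The list median log2 fold change was -0.16, and the remaining share was 6.64% (5.13 to 10.03% when single mice were left out). *Eif4ebp1*, which encodes the translation repressor 4E-BP1 that mTORC1 inactivates, was at 10.6, 22.5, 4.72 and 7.33 CPM on day 13 and at 0.937, 0.985, 1.12 and 1.502 CPM under rapamycin, beside 0.884 to 1.23 CPM in the controls (-3.29 ± 0.44, edgeR adjusted p = 9.68e-04). *Sesn2*, an inhibitor of mTORC1 that senses leucine and is also in the stress list, was at 57.9, 94.1, 51.7 and 53.6 CPM on day 13 and 13.5, 12.1, 11.8 and 10.1 CPM under rapamycin (-2.43 ± 0.19, edgeR adjusted p = 1.35e-04). The groups did not overlap in either gene, and the rapamycin intervals against control included 0 in both (*Eif4ebp1* 0.07 with a 95% interval from -0.37 to 0.5, *Sesn2* 0.11 with a 95% interval from -0.09 to 0.31). *Rheb*, the activator of mTORC1, was at 147, 165, 148 and 83.8 CPM on day 13, with mouse D lowest, and at 62.1 to 67.6 CPM under rapamycin (log2 fold change -1.05). *Rragd*, a lysosomal GTPase that recruits mTORC1, was lower by 1.04 on the log2 scale than on day 13 and -0.29 with a 95% interval from -0.4 to -0.17 against control. Of 14 growth factor feedback genes, 2 were higher and 1 lower. *Foxo1*, a transcription factor that insulin signalling holds out of the nucleus, was at 12.7, 11.02, 11.9 and 17.7 CPM on day 13 and 23.6 to 33.2 CPM under rapamycin (1.09 ± 0.17, edgeR adjusted p = 0.00163), a range that overlapped with 23.8 to 29.98 CPM in the controls. The other calls, *Igfbp3* (-1.41) and *Igfbp5* (0.86), were each lost with 1 mouse left out.

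The list level of sterol genes went below control. SREBP2 turns on cholesterol synthesis when sterols are low, and mTORC1 favours its activity. Of 23 tested members, 22 were lower under rapamycin than on day 13 (median log2 fold change -1.26), 19 had been higher on day 13 than in control (median 0.96), and 5 were called lower under rapamycin than in control (median -0.33). The list level was 1.21, 0.43, 1.06 and 0.87 in the day 13 mice and -0.27, -0.38, -0.3 and -0.46 in the rapamycin mice, all 4 below all 4 controls. Relative to the day 13 distance, the remaining share was -39.8% (-45.2 to -33.98% when single mice were left out). Mouse B, which had the highest stress list level on day 13, had the lowest sterol level of the day 13 mice.

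*Hmgcs1*, an early enzyme of cholesterol synthesis, was at 139, 134, 134 and 130.5 CPM in the controls, at 522, 250.1, 377 and 350.5 CPM on day 13 and at 86.2, 92.8, 108 and 87.0 CPM under rapamycin. The 3 groups did not overlap (log2 fold change of rapamycin over day 13 -2.0 ± 0.2, edgeR adjusted p = 2.84e-04, and over control -0.53 ± 0.07, edgeR adjusted p = 0.00122). *Sqle* and *Mvd*, later enzymes of the same path, had log2 fold changes of -1.96 and -1.91 against day 13 and -0.58 and -0.55 against control, both called in each comparison. Of 14 fatty acid synthesis genes, 2 were lower (4 without day 13 mice A and B) and 13 were near control. Their list level was 0.01, -0.2, 0.12 and 0.14 in the day 13 mice. In the rapamycin mice it was -0.19 to -0.17, below all 4 controls (-0.04 to 0.03), and 1 gene was called lower than control. *Acly*, which supplies cytosolic acetyl-CoA, was at 219 to 284 CPM on day 13 and 114 to 135 CPM under rapamycin (log2 fold change -0.9). The call of *Fasn*, the fatty acid synthase (log2 fold change -0.54), was lost without day 13 mouse C and without rapamycin mouse D.

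The *Hmgcs1* promoter is shown because the sterol genes moved together. The sterol regulatory element, searched as TCACNCCAC on both strands of the same 300-base windows, was found in 1 of 16 sterol genes with a promoter in the table (6.25%) and in 388 of all 27025 genes (1.44%), with the match in capitals, 137 bases before the start.
Hmgcs1: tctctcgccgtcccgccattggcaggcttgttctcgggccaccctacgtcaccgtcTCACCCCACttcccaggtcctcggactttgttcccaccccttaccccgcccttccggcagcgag
The stretch of *Hmgcs1* is chr13:119690158-119690277 on the plus strand (GRCm38.p6), upstream of the start. This single spelling of the element leaves out the variants that SREBP also binds.

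Lysosomal genes were raised on day 13, and under rapamycin their list level was slightly below control. TFEB turns on these genes through the CLEAR element, and mTORC1 keeps TFEB in the cytosol. Of 28 tested genes, 22 were lower under rapamycin than on day 13 (median log2 fold change -0.65) and 0 higher, 12 had been higher on day 13 than in control, and 22 lay near control. The remaining share was -25.6% (-29.4 to -22.6% when single mice were left out). *Gpnmb*, a membrane glycoprotein of lysosome-rich cells that is also in the activated microglia list, was at 49.9, 108, 55.6 and 56.2 CPM on day 13 and at 4.58, 6.31, 3.83 and 3.96 CPM under rapamycin (-3.83 ± 0.27, edgeR adjusted p = 9.63e-05). *Gla*, which removes galactose from glycolipids, was at 34.02, 71.1, 30.2 and 26.2 CPM on day 13 and 10.1, 9.76, 10.7 and 9.48 CPM under rapamycin (-2.0 ± 0.27, edgeR adjusted p = 0.00102), and the proteases *Ctsl* and *Ctsd* had log2 fold changes of -1.22 and -1.05. Mouse B was the highest day 13 mouse in each of these 4 genes. Against control, *Ctsd* was -0.38 with a 95% interval from -0.55 to -0.21 and *Gla* -0.11 with a 95% interval from -0.28 to 0.05.

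The promoters of 3 lysosomal genes are shown with the CLEAR element in capitals. The letters TCACGTGA, which read the same on both strands, were found in 6 of 22 lysosomal genes with a promoter in the table (27.3%), beside 304 of all 27025 genes (1.12%). The list was drawn up to hold TFEB targets, so this share describes the list and is no result of these data.
Gla: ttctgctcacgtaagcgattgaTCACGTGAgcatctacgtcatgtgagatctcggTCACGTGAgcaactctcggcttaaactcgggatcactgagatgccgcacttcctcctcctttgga
Ctsd: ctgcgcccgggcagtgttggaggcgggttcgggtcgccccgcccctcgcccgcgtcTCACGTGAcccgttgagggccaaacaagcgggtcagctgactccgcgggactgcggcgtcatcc
Ctsa: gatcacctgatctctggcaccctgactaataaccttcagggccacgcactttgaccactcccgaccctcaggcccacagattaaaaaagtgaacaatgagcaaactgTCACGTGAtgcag
The stretch of *Gla* is chrX:134601136-134601255 on the minus strand (GRCm38.p6), upstream of the start. The stretch of *Ctsd* is chr7:142387863-142387982 on the minus strand (GRCm38.p6), upstream of the start. The stretch of *Ctsa* is chr2:164833653-164833772 on the plus strand (GRCm38.p6), upstream of the start. *Gla* holds 2 matches, 228 and 195 bases before the start, *Ctsd* 1 at 99 bases and *Ctsa* 1 at 13 bases in the stretch shown. *Ctsa*, a lysosomal carboxypeptidase, was chosen for display after the values were seen.

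Chaperones of the endoplasmic reticulum, the other arm of the response to misfolded protein, moved less than the ATF4 genes. Of 22 tested, 9 were lower under rapamycin (median log2 fold change -0.42) and 0 higher, 3 had been higher on day 13 than in control, and 1, *Sdf2l1*, was lower than control (log2 fold change -0.54). *Herpud1*, which takes part in the removal of misfolded protein, was at 58.7 to 94.5 CPM on day 13 and 28.02 to 32.5 CPM under rapamycin (-1.23 ± 0.13, edgeR adjusted p = 4.17e-04). *Hspa5*, the main chaperone BiP, was at 286, 312, 269.9 and 185 CPM on day 13 and 172, 129.6, 126 and 143 CPM under rapamycin (log2 fold change -0.87). The remaining share of -51.5% (-62.5 to -43.2% when single mice were left out) rests on a small day 13 rise, since the list level on day 13 was 0.31 ± 0.13 (SD, n = 4).

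Genes of energy metabolism were near control under rapamycin. Of 23 glycolysis and HIF1 target genes, 13 were lower under rapamycin than on day 13 and 9 had been higher on day 13 than in control, and all 23 were near control under rapamycin, with a remaining share of -18.3% (-22.5 to -8.86% when single mice were left out). The rapamycin list levels, -0.22 to -0.03, overlapped with -0.04 to 0.04 in the controls. *Hk2*, a hexokinase, was at 27.2, 19.98, 12.2 and 8.42 CPM on day 13 and at 4.16 to 5.41 CPM under rapamycin, beside 4.66 to 5.46 CPM in the controls (-1.85 ± 0.31, edgeR adjusted p = 0.00241). *Slc16a1*, a lactate transporter, and *Ldha* and *Pgam1*, glycolytic enzymes, had log2 fold changes of -1.21, -1.18 and -0.76. Of 22 nuclear genes of the respiratory chain, 13 were lower under rapamycin, 0 higher, and all 22 were near control, with a remaining share of -4.503% (-10.1 to 5.55% when single mice were left out). *Cox6a1*, a subunit of cytochrome c oxidase, was at 139, 152, 152 and 149 CPM on day 13 and 87.4, 85.8, 73.03 and 65.1 CPM under rapamycin (-0.92 ± 0.1, edgeR adjusted p = 4.31e-04). *Cox5a*, another subunit, *Cyc1*, a subunit of complex III, and *Cycs*, cytochrome c, had log2 fold changes of -0.77, -0.71 and -0.68.

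Of 22 ribosome biogenesis genes, 10 were lower under rapamycin and all 22 were near control. The remaining share was -1.53% (-2.803 to -0.246% when single mice were left out). This count rests on 2 mice: the list level on day 13 was 0.71, 0.7, 0.25 and 0.21, and without day 13 mice A and B 2 of 22 were lower. *Nop2* and *Rrp9*, both needed to make ribosomal RNA, had log2 fold changes of -0.85 and -0.85, -0.52 and -0.63 without these mice. Of 15 oxidative stress and metallothionein genes, 5 were lower. *Hmox1*, which breaks down heme, was at 37.6, 32.3, 12.9 and 16.9 CPM on day 13 and 2.36, 2.58, 2.19 and 2.07 CPM under rapamycin, with no overlap (-3.43 ± 0.33, edgeR adjusted p = 2.57e-04). *Srxn1*, a repair enzyme of peroxiredoxins, and *Mt1*, a metallothionein, had log2 fold changes of -1.81 and -1.55, with day 13 mice A and B highest in both.

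**Figure D2:**
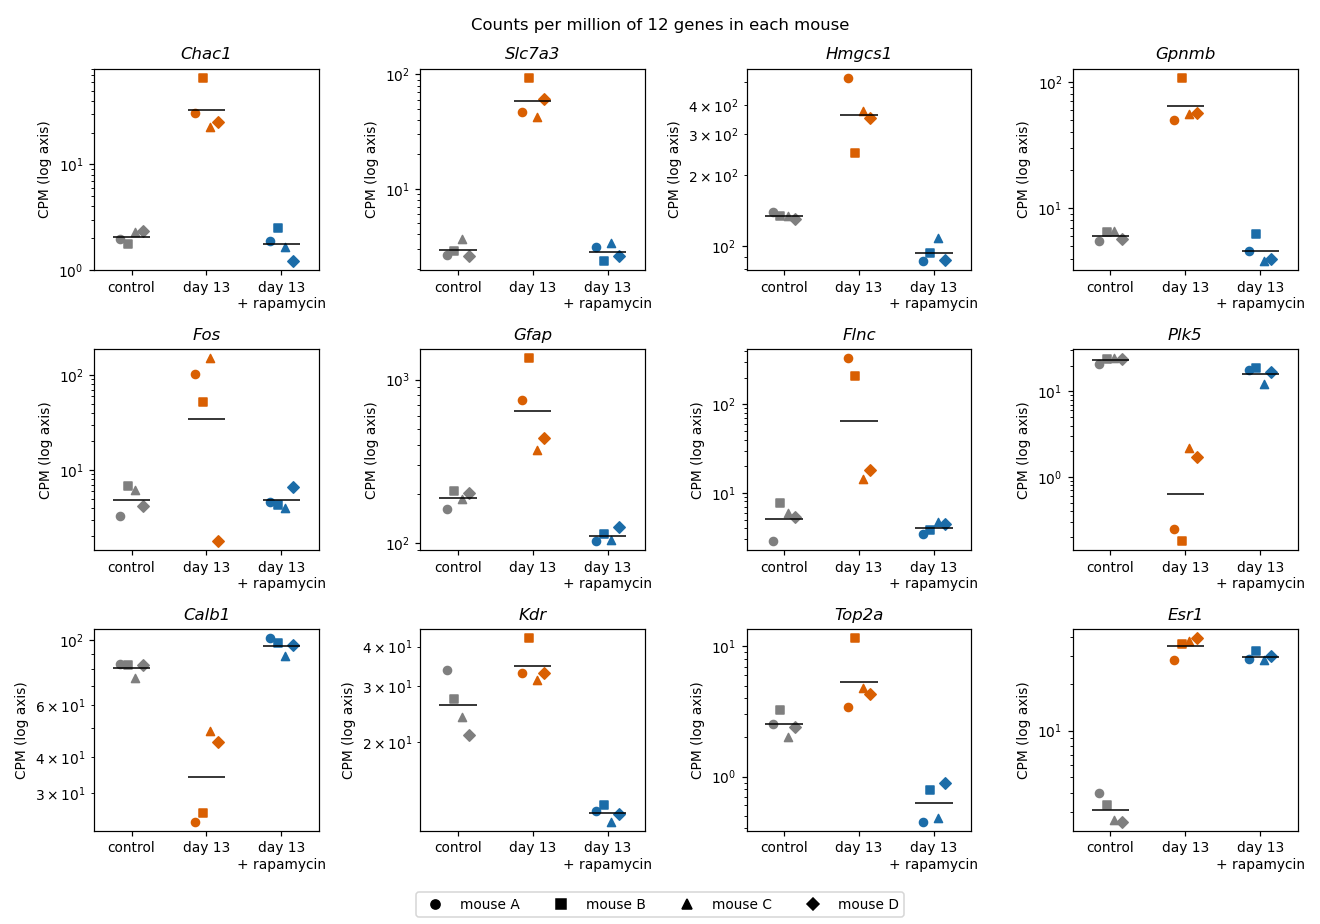
CPM of named genes on a log axis, 1 point per mouse, in the control, day 13 and rapamycin mice, with lines at the geometric means. Slc7a3 is high in all 4 day 13 mice, Fos in 3 of 4 and Flnc mostly in mice A and B, while the day 13 and rapamycin values of Esr1 overlap above control.

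Immediate early genes were high in 3 of the 4 day 13 mice and at or slightly below the control range in the rapamycin mice. These genes are transcribed within minutes of neuronal firing. Of 17 tested, 11 were lower under rapamycin than on day 13 (median log2 fold change -1.57) and 0 higher, and 2 were lower than control. The list level was 1.71, 1.03, 2.37 and -0.47 in the day 13 mice and -0.1, -0.09, -0.23 and 0.00 in the rapamycin mice, where the controls ran from -0.18 to 0.19. Day 13 mouse D and rapamycin mouse C were below the lowest control, and no remaining share was given. *Fos* was at 102, 51.9, 151 and 1.78 CPM on day 13, 4.62, 4.26, 4.02 and 6.68 CPM under rapamycin and 3.25, 6.79, 6.17 and 4.14 CPM in the controls. Mouse D was the lowest of the 12 mice, so the groups overlapped (log2 fold change -3.96 ± 0.91, edgeR adjusted p = 0.00987). *Egr2*, a second immediate early transcription factor, had the same order of mice, 19.2, 10.1, 23.2 and 0.406 CPM (log2 fold change -3.96, edgeR adjusted p = 0.00767). *Fosb* (-2.86) and *Npas4* (-2.39) were called, and lost the call with single mice left out. The count of lower members ranged from 6 without rapamycin mouse C to 16 without day 13 mouse D.

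Neuropeptides and growth factors that follow activity over hours to days were less uneven. Of 23 tested, 16 were lower under rapamycin and 16 had been higher on day 13 than in control (medians -1.54 and 1.38). Without day 13 mice A and B 12 were lower, with a median of -0.91. In list level they stood at 1.6, 1.58, 0.84 and 0.5 in the day 13 mice and -0.21, -0.11, -0.1 and -0.19 in the rapamycin mice, below all controls, with a remaining share of -13.5% (-16.3 to -11.4% when single mice were left out). *Nptx2*, a secreted pentraxin that gathers AMPA receptors, was at 228, 406, 140.2 and 49.7 CPM on day 13 and at 10.2, 13.7, 13.2 and 10.5 CPM under rapamycin (-4.09 ± 0.52, edgeR adjusted p = 7.91e-04). *Npy*, neuropeptide Y, was at 81.7, 100.8, 25.99 and 25.3 CPM on day 13 and 8.54, 8.19, 10.7 and 10.9 CPM under rapamycin (-2.59 ± 0.43, edgeR adjusted p = 0.00231). In each of *Nptx2* and *Npy* mouse B was highest and mouse D lowest, and mouse D was above every rapamycin mouse. *Penk*, which encodes enkephalins, had a log2 fold change of -2.75 and was called lower than control (-0.6). *Gal*, which encodes galanin, was raised in mice A and B (3.799, 4.999, 0.199 and 0.533 CPM) and was not called without them (log2 fold change -0.91).

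Ion channel genes moved in both directions, with counts to be read beside 9.94% called higher and 11.2% lower of all genes tested. Of 32 genes of voltage-gated potassium channels and their partners, 6 were higher and 2 lower under rapamycin, and 28 were near control. The count of higher members fell to 3 without rapamycin mouse B and to 2 without day 13 mice A and B. *Kcnc2*, a channel of fast-firing cells, was at 79.3, 74.2, 103 and 83.1 CPM on day 13 and 146, 141, 131 and 128 CPM under rapamycin (0.69 ± 0.11, edgeR adjusted p = 0.00188). *Kcnip3*, a calcium-binding channel partner, went the other way, with 130.2, 120.4, 68.5 and 63.8 CPM on day 13 and 34.7, 33.3, 39.1 and 33.8 CPM under rapamycin (-1.43 ± 0.21, edgeR adjusted p = 0.0015). *Kcnq3*, a subunit of the M-current, was at 226, 161, 374 and 301 CPM on day 13, with mice A and B lowest, and 447 to 488 CPM under rapamycin (log2 fold change 0.82, and 0.47, not called, without mice A and B).

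Among 26 other potassium and HCN channels, 2 were higher and 6 lower. *Hcn3*, a pacemaker channel, was at 27.3, 27.3, 12.2 and 13.7 CPM on day 13 and 5.22 to 6.73 CPM under rapamycin (-1.79 ± 0.26, edgeR adjusted p = 0.00138). *Kcnk9*, a leak channel, was at 69.6, 41.2, 75.3 and 56.7 CPM on day 13 and 125, 132, 130.3 and 122 CPM under rapamycin (1.08 ± 0.16, edgeR adjusted p = 0.00164), and *Kcnj4*, an inward rectifier, had a log2 fold change of -1.01 with little spread on day 13 (81.4 to 101.1 CPM). Of 27 sodium and calcium channels, 1 was higher (*Scn3a*, 0.65) and 2 lower (*Cacna1g* among them, -0.72), and all 27 were near control. *Cacna1g* was not called without day 13 mice A and B (-0.37). Of 12 GABA-A receptor subunits, 0 were called by edgeR in either direction (4 at an unadjusted p under 0.05, and 0 called by DESeq2), among them *Gabrb1* (log2 fold change -0.23 ± 0.08).

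Of 22 glutamate receptor genes, 4 were higher and 1 lower under rapamycin, with a median log2 fold change of 0.39 and 21 near control. Beside this list and the vesicle genes below stand 9.94% called higher and 11.2% lower among all genes tested. *Gria2*, which sets the calcium permeability of AMPA receptors, was at 893, 989, 1319 and 1131 CPM on day 13 and 1544, 1592, 1502 and 1603 CPM under rapamycin (0.53 ± 0.12, edgeR adjusted p = 0.00803). Without day 13 mice A and B, 0 were higher and 1 was lower, and without day 13 mouse B 1 was higher. Of 22 genes of synaptic vesicle release, 1 was higher and 5 lower, and all 22 were near control. *Doc2b*, a calcium sensor of spontaneous release, was at 40.1, 20.04, 32.98 and 22.98 CPM on day 13 and 82.1, 86.4, 62.5 and 93.2 CPM under rapamycin (1.49 ± 0.22, edgeR adjusted p = 0.00133). *Sv2c*, a vesicle protein, was at 182, 258, 98.98 and 127 CPM on day 13 and 40.04 to 58.2 CPM under rapamycin (-1.79 ± 0.26, edgeR adjusted p = 0.00125). *Slc17a7*, the vesicular glutamate transporter VGLUT1, was even across the day 13 mice at 1056 to 1124 CPM, with 552 to 714 CPM under rapamycin (log2 fold change -0.79).

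Several dentate granule cell genes were lower on day 13, and most were near control under rapamycin. In whole tissue, fewer cells of a type and less RNA per cell cannot be told apart. Of 14 tested, 8 were higher under rapamycin than on day 13 (median log2 fold change 0.6) and 0 lower, 6 had been lower on day 13 than in control (median -0.66), and 12 were near control. The remaining share was 0.707% (-6.58 to 5.06% when single mice were left out). Without rapamycin mouse B 4 were higher, and without day 13 mice A and B 6 were higher and 1 lower. *Plk5*, a kinase family member found in neurons, was at 21.1, 23.9, 24.5 and 24.1 CPM in the controls, 0.246, 0.179, 2.22 and 1.699 CPM on day 13 and 17.7, 18.5, 12.2 and 16.7 CPM under rapamycin. It was the largest rise in the comparison (4.06 ± 0.68, edgeR adjusted p = 0.00242) and stayed below control (-0.52 ± 0.11, edgeR adjusted p = 0.0193). *Calb1*, a calcium buffer of mature granule cells, was at 24.01, 25.7, 48.98 and 45.1 CPM on day 13 and 102, 98.1, 88.4 and 96.2 CPM under rapamycin (1.43 ± 0.22, edgeR adjusted p = 0.00181), and *Trpc6*, a cation channel, was at 26.8, 24.1, 25.5 and 26.3 CPM on day 13 and 56.5, 58.7, 53.6 and 69.9 CPM under rapamycin (1.23 ± 0.1, edgeR adjusted p = 1.54e-04). *Trpc6* was nearly the same in all 4 day 13 mice, whereas *Calb1* was lowest in mice A and B. *Prox1*, the defining transcription factor of granule cells, was at 131, 108, 119 and 111 CPM on day 13 and 127, 139.8, 119 and 175 CPM under rapamycin and was not called (0.27 ± 0.12, edgeR adjusted p = 0.118).

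Markers of the pyramidal fields were called about as often as genes in general (21.1% of all genes tested). Of 8 CA1 genes, 2 were lower, *Wfs1* (-0.63) and *Pou3f1* (-0.52). The call of *Wfs1* was lost with each of 6 single mice left out and that of *Pou3f1* with each of 4. Neither was called without day 13 mice A and B. Of 12 CA2 and CA3 genes, 2 were higher and 1 lower. *Cdh24*, a cadherin, was at 12.4, 6.91, 11.8 and 8.09 CPM on day 13 and 25.96, 28.7, 20.8 and 24.1 CPM under rapamycin (1.36 ± 0.2, edgeR adjusted p = 0.00131). *Rgs14*, a signalling regulator of CA2 neurons, was at 116 to 167 CPM on day 13 and 62.98 to 83.5 CPM under rapamycin (log2 fold change -0.88). Of 18 interneuron genes, 4 were higher and 1 lower, and 15 were near control. Among all genes tested these shares were 9.94%, 11.2% and 55.6%. *Nos1*, neuronal nitric oxide synthase, was at 60.4, 61.4, 77.8 and 55.8 CPM on day 13 and 115, 131, 104 and 106 CPM under rapamycin (0.85 ± 0.12, edgeR adjusted p = 0.00108), *Erbb4*, a neuregulin receptor, had a log2 fold change of 0.78 and *Dlx6os1*, a noncoding RNA of the interneuron lineage, of 0.79. The lower member was *Npy*. *Gad1*, which makes GABA, was at 302, 289, 239.5 and 203 CPM on day 13 and 226, 211, 216 and 198 CPM under rapamycin and was not called (-0.27 ± 0.11, edgeR adjusted p = 0.095). Of 13 genes of immature neurons, 4 were lower, namely the tubulins *Tubb2b* (-1.74) and *Tubb3* (-1.28) and the transcription factors *Sox11* (-1.51) and *Sox4* (-0.73). Under rapamycin their log2 fold changes against control were -0.48, -0.27, 0.24 and -0.28, none of them called. Their list level was 0.18, 0.06, 0.09 and 0.21 in the day 13 mice and -0.22, -0.27, -0.03 and -0.15 in the rapamycin mice. The remaining share of -122% (-156 to -95.7% when single mice were left out) rests on this small day 13 rise.

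Reactive astrocyte genes were high in day 13 mice A and B and far less so in C and D. Of 23 tested, 19 were lower under rapamycin (median log2 fold change -1.81), 18 had been higher on day 13 than in control (median 1.8), and 1 was higher and 3 lower under rapamycin than in control. The list level was 2.25, 2.46, 0.25 and 0.32 in day 13 mice A to D and -0.26, -0.21, -0.04 and -0.19 in the rapamycin mice, with a remaining share of -13.1% (-18.4 to -8.03% when single mice were left out). Each of these shares keeps day 13 mouse A or B and rests mainly on them. The share without both was not calculated. These rapamycin levels overlapped with the controls, which ran from -0.1 to 0.19. Without day 13 mice A and B, 7 were lower and 1 higher, with a median of -0.52, and with *Ttr* as a covariate 10 were lower. *Gfap*, the astrocyte filament, was at 162, 209, 186 and 201 CPM in the controls, 751, 1357, 372 and 437 CPM on day 13 and 102, 114, 104 and 124 CPM under rapamycin. No group overlapped with another, and rapamycin was the lowest (log2 fold change over day 13 -2.7 ± 0.35, edgeR adjusted p = 8.37e-04, and over control -0.77 ± 0.08, edgeR adjusted p = 3.81e-04). *Emp1*, a membrane protein of reactive astrocytes, was at 49.8, 30.2, 3.89 and 3.298 CPM on day 13 and 1.49 to 2.12 CPM under rapamycin (-3.52 ± 0.8, edgeR adjusted p = 0.00942). *Cd44*, the hyaluronan receptor, was at 118, 151, 5.63 and 5.33 CPM on day 13 and at 1.804, 1.67, 6.66 and 1.46 CPM under rapamycin, where mouse C was above day 13 mice C and D. Its log2 fold change of -4.56 became -0.9, not called, without day 13 mice A and B, as did that of the pentraxin *Ptx3* (-5.46 and -0.44). The log2 fold change of *Hspb1*, a small heat shock protein (-3.78), turned to 0.4 without them.

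Of 17 homeostatic astrocyte genes, 1 was higher and 3 lower under rapamycin than on day 13, and 2 were lower than control. As a list their level was -0.55, -0.49, -0.03 and -0.03 in the day 13 mice and -0.16, -0.2, -0.17 and -0.17 in the rapamycin mice, below all controls, and -0.22, -0.2, -0.2 and -0.21 in the untreated mice of day 6. *Aqp4*, the astrocyte water channel, was at 189.9, 220.2, 134 and 136 CPM on day 13, 94.6, 94.4, 104 and 113 CPM under rapamycin and 165 to 168 CPM in the controls. All 4 rapamycin mice were below all others (log2 fold change over control -0.72 ± 0.06, edgeR adjusted p = 4.81e-05), and the call against day 13 (-0.73) was lost without mice A and B (-0.41). *Gja1*, connexin 43, was low in day 13 mice A and B (49.3, 62.8, 119 and 146 CPM) and at 162 to 184 CPM under rapamycin, and its call (0.89) was likewise lost (0.39).

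Microglial genes went below control under rapamycin. Of 14 homeostatic microglia genes, 5 were lower than on day 13 (median log2 fold change -0.41), whereas day 13 against control gave 0 higher and 1 lower (median -0.06). Rapamycin mice against control gave 7 lower (median -0.5), and 1 of 14 was near control, beside 55.6% of all genes. In the rapamycin mice the list level was -0.51, -0.49, -0.61 and -0.52, against -0.28, 0.15, 0.02 and -0.16 in the day 13 mice. It had also been below the control mean in the untreated mice of earlier days, with means of -0.27 (day 4), -0.2 (day 6, all 4 mice below all controls) and -0.15 (day 8). *Fcrls*, a surface receptor of resident microglia, was at 25.7, 20.97, 22.1 and 21.4 CPM in the controls, 43.04, 55.3, 24.2 and 18.6 CPM on day 13 and 8.68, 9.85, 9.37 and 9.08 CPM under rapamycin. The rapamycin mice were below both other groups (log2 fold change over day 13 -1.92 ± 0.29, edgeR adjusted p = 0.00153, and over control -1.28 ± 0.08, edgeR adjusted p = 5.06e-06). *Aif1*, which encodes the microglial protein IBA1, was at 3.92, 4.75, 3.49 and 3.12 CPM on day 13 and 2.22, 2.04, 2.69 and 2.25 CPM under rapamycin, and -0.67 with a 95% interval from -0.96 to -0.39 on the log2 scale against control. Its call against day 13 (-0.73) was lost without mice A and B (-0.52), while the call against control does not involve them.

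Activated microglia genes were raised on day 13 and reduced under rapamycin: 13 of 18 were lower (median log2 fold change -1.16), and 8 of 18 without day 13 mice A and B (median -0.67). The list level was 0.76, 1.18, 0.32 and 0.31 in day 13 mice A to D and -0.35, -0.26, -0.17 and -0.36 in the rapamycin mice. The remaining share was -44.02% (-61.2 to -37.5% when single mice were left out). It was not calculated without day 13 mice A and B together. *Itgax*, an integrin of activated microglia, was at 0.615, 0.725, 0.625 and 0.837 CPM on day 13 and 0.0694, 0.161, 0.125 and 0.0812 CPM under rapamycin (-2.59 ± 0.33, edgeR adjusted p = 7.48e-04). *Spp1*, osteopontin (22.3, 29.2, 3.81 and 1.85 CPM on day 13), and *Lgals3*, galectin 3 (1.05, 5.903, 1.02 and 1.19 CPM), were carried by mice A and B and by mouse B, and their calls were lost without mice A and B. Of 17 MHC and complement genes, 11 were lower and 3 were lower than control. *C1qb*, a subunit of complement C1, was at 27.6, 40.7, 16.9 and 18.2 CPM on day 13 and 10.5, 10.6, 10.3 and 8.83 CPM under rapamycin (-1.35 ± 0.24, edgeR adjusted p = 0.00332), and *C4b*, another complement component, was at 63.8, 124, 51.8 and 76.6 CPM on day 13 and 31.02, 31.2, 28.3 and 27.3 CPM under rapamycin (-1.41 ± 0.22, edgeR adjusted p = 0.00177). *C3* was called (-1.3), but its groups overlapped and 6 of the 8 single mice left out ended the call.

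Of 22 interferon-stimulated genes, 1 was higher on day 13 than in control. Of the 22, 12 were lower than on day 13 (6 without day 13 mice A and B, with a median of -0.45) and 5 were lower than control, with medians of -0.73 and -0.49. The list level was -0.4, -0.42, -0.37 and -0.41 in the rapamycin mice, below all controls. *Gbp3*, a guanylate-binding protein, was at 4.29, 6.04, 5.0 and 4.85 CPM on day 13 and 2.39, 1.94, 2.58 and 2.29 CPM under rapamycin, beside 4.12 to 5.14 CPM in the controls (-1.12 ± 0.16, edgeR adjusted p = 0.00113). *Ifitm3*, a membrane protein that blocks virus entry, and *Irgm1*, an immunity GTPase, had log2 fold changes of -1.71 and -1.45. Of 21 cytokines and chemokines, 13 passed the filter on low counts. Of these, 1 was higher and 6 lower, and 2 lower without day 13 mice A and B. *Lif*, a cytokine that signals through STAT3, was at 92.1, 31.3, 2.699 and 0.355 CPM on day 13 and 0.625, 0.323, 0.229 and 0.447 CPM under rapamycin (-6.33 ± 1.44, edgeR adjusted p = 0.00938), so mouse D was within the rapamycin range. *Il1a*, interleukin 1 alpha, was at 2.43, 1.37, 1.53 and 0.761 CPM on day 13 and 0.174, 0.394, 0.375 and 0.345 CPM under rapamycin (-2.19 ± 0.38, edgeR adjusted p = 0.00267).

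The list level of cell cycle genes was above all controls on day 13 and below all controls under rapamycin. Of 24 tested, 1 was higher and 16 lower than on day 13 (median log2 fold change -0.84), and 2 were lower than control. Without day 13 mice A and B, 2 were higher and 11 lower, with a median of -0.61. The list level was 0.28, 0.84, 0.28 and 0.28 in day 13 mice A to D. For this list the remaining share was -58.3% (-87.1 to -51.1% when single mice were left out). *Top2a*, which untangles DNA in dividing cells, was at 2.53, 3.24, 2.01 and 2.42 CPM in the controls, 3.42, 11.6, 4.83 and 4.34 CPM on day 13 and 0.451, 0.788, 0.479 and 0.893 CPM under rapamycin, with no overlap among the 3 groups (log2 fold change over day 13 -3.17 ± 0.41, edgeR adjusted p = 8.42e-04, and over control -1.93 ± 0.23, edgeR adjusted p = 0.00119). *Ccnb1*, cyclin B1, was at 1.77, 2.68, 1.62 and 1.29 CPM on day 13 and 0.139, 0.251, 0.125 and 0.223 CPM under rapamycin (-3.27 ± 0.32, edgeR adjusted p = 2.88e-04), and *Cenpf*, a kinetochore protein, was -2.14 against day 13 and -0.91 against control. These levels are low, and the cell type that held them was not measured.

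Of 21 collagens and matrix proteases, 13 were lower under rapamycin (median log2 fold change -0.91, and -0.59 without day 13 mice A and B) and 3 were lower than control, with a remaining share of -37.6% (-47.98 to -30.03% when single mice were left out). On day 13 the list level was 1.14, 1.21, 0.25 and 0.4 in mice A to D, and the share without mice A and B together was not calculated. The rapamycin list levels, -0.45 to -0.12, overlapped with -0.16 to 0.11 in the controls. *Col3a1*, a fibrillar collagen, was at 14.1, 17.8, 6.42 and 16.1 CPM on day 13 and 2.15, 1.65, 3.35 and 1.02 CPM under rapamycin (-2.73 ± 0.39, edgeR adjusted p = 0.00119). *Adamts1*, a matrix protease, was at 227, 120.4, 39.1 and 22.2 CPM on day 13 and 16.3 to 20.7 CPM under rapamycin and was called lower than control (-0.8). *Tnc*, tenascin C, was above control only in mice A and B (97.6, 118, 7.102 and 8.55 CPM) and its log2 fold change of -2.91 became -0.04 without them.

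The list level of endothelial genes was also below control under rapamycin. Of 15 tested, 9 were lower under rapamycin than on day 13 (median log2 fold change -0.58; 5 and -0.35 without day 13 mice A and B), 4 had been higher on day 13 than in control, and 2 were lower than control. The list level was -0.25, -0.19, -0.17 and -0.25 in the rapamycin mice, below all controls, and the remaining share was -74.7% (-97.9 to -60.4% when single mice were left out). *Kdr*, the VEGF receptor VEGFR2, was at 33.8, 27.4, 23.99 and 21.2 CPM in the controls, 32.96, 42.5, 31.5 and 33.1 CPM on day 13 and 12.2, 12.7, 11.3 and 11.9 CPM under rapamycin (log2 fold change over day 13 -1.53 ± 0.11, edgeR adjusted p = 9.63e-05, and over control -1.14 ± 0.12, edgeR adjusted p = 3.81e-04). *Cldn5*, a tight junction protein of the blood-brain barrier, was at 22.1, 27.6, 28.6 and 23.6 CPM on day 13 and 14.9, 12.6, 9.95 and 11.2 CPM under rapamycin (-1.06 ± 0.14, edgeR adjusted p = 9.34e-04), -0.68 with a 95% interval from -0.9 to -0.45 against control. In both genes the 4 rapamycin mice lay below every day 13 mouse and every control. *Emcn*, an endothelial sialomucin, had a log2 fold change of -0.94. Of 11 pericyte and smooth muscle genes, 0 were called by edgeR (5 at an unadjusted p under 0.05, and 2 called by DESeq2). *Rgs5*, a pericyte regulator of G proteins, was at 88.7 to 124 CPM on day 13 and 77.5 to 87.4 CPM under rapamycin, with no overlap and an adjusted p under edgeR of 0.0107, but its log2 fold change of -0.44 was below the fold minimum.

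Of 15 genes of mature oligodendrocytes and myelin, 2 were lower than on day 13, *Cldn11* (-0.53) and *Trf* (-0.65), both lost with single mice left out, and 5 were lower than control. Without day 13 mice A and B 4 were lower, and the median log2 fold change went from -0.17 to -0.38. *Mbp*, myelin basic protein, was at 1488, 1005, 1391 and 1887 CPM on day 13 and 1143, 1134, 1135 and 1551 CPM under rapamycin and was not called (-0.21 ± 0.18, edgeR adjusted p = 0.399). Of 13 precursor genes, 3 were lower than on day 13 (5 without day 13 mice A and B) and 3 than control, and the rapamycin list level, -0.36, -0.35, -0.36 and -0.24, was below all controls. *Bcas1*, expressed as precursors begin to make myelin, was at 173, 118, 126 and 132 CPM on day 13 and 71.9, 66.7, 67.9 and 105 CPM under rapamycin (-0.81 ± 0.17, edgeR adjusted p = 0.00605). *Enpp6*, of newly formed oligodendrocytes, was at 9.63, 16.2, 12.1 and 15.5 CPM in the controls, 7.31, 8.91, 14.9 and 21.2 CPM on day 13 and 3.61, 5.32, 4.87 and 7.51 CPM under rapamycin. It was lower than control (-1.31 ± 0.2, edgeR adjusted p = 0.00385), and its call against day 13 (-1.28) was lost without rapamycin mouse A or C. *Pdgfra*, the receptor that marks precursors, was at 57.1, 74.3, 74.03 and 74.7 CPM on day 13 and 76.9, 72.8, 83.7 and 66.9 CPM under rapamycin and was not called (0.11 ± 0.11, edgeR adjusted p = 0.455).

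A smaller set of differences between day 13 mice and controls was also present under rapamycin. Rapamycin and untreated mice were both taken on day 13 and the controls on day 8, so the day of collection cannot be told apart. *Esr1*, estrogen receptor alpha, was at 3.96, 3.32, 2.67 and 2.61 CPM in the controls, 28.2, 35.7, 37.4 and 39.1 CPM on day 13 and 28.7, 32.3, 28.3 and 30.01 CPM under rapamycin. The day 13 and rapamycin mice overlapped (-0.22 ± 0.11, edgeR adjusted p = 0.149), and both were far above control (3.25 ± 0.12 for rapamycin, edgeR adjusted p = 1.24e-08). The CreERT2 transgene itself holds an estrogen receptor domain, and whether its reads were counted to *Esr1* was not tested. *Arsi*, an arylsulfatase, was at 1.43, 2.002, 1.37 and 1.69 CPM in the controls, 15.4, 15.5, 15.4 and 10.9 CPM on day 13 and 9.06, 9.14, 6.79 and 8.39 CPM under rapamycin, lower than on day 13 (-0.77 ± 0.15, edgeR adjusted p = 0.00442) and still above control (2.36).

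Glucocorticoid response genes were as high under rapamycin as without it. Of 13 tested, 8 were higher than control on day 13 and 9 under rapamycin (medians 0.68 and 0.77), 3 were near control, and 3 were higher and 2 lower under rapamycin than on day 13. The list level was 0.56, 0.71, 0.63 and 0.56 in the day 13 mice and 0.69, 0.71, 0.91 and 0.62 in the rapamycin mice, with a remaining share of 119.7% (109.9 to 126% when single mice were left out). On the earlier days of untreated deletion its mean was 0.49 (day 4), 0.08 (day 6) and 0.02 (day 8), so it was not steady. The controls were also taken on day 8, and an effect of the day of collection was not tested. *Plin4*, a lipid droplet protein, was at 11.7, 19.8, 20.1 and 17.5 CPM in the controls, 43.6, 69.95, 39.6 and 35.8 CPM on day 13 and 64.4, 64.1, 92.9 and 56.97 CPM under rapamycin (2.01 ± 0.17 against control, edgeR adjusted p = 7.26e-05). *Sult1a1*, a sulfotransferase, was at 6.03, 5.42, 6.93 and 9.44 CPM on day 13, inside the control range of 5.302 to 7.03 CPM except for mouse D, and at 11.9, 10.5, 15.7 and 11.5 CPM under rapamycin (0.85 ± 0.2, edgeR adjusted p = 0.0104). *Mfsd2a*, a lipid transporter that is also in the endothelial list, went the other way (-0.89) and was near its control level of 10.9 to 11.9 CPM at 9.77 to 15.03 CPM.

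*Hif3a*, a hypoxia-responsive factor, and *Map3k6*, a stress kinase, were outside the lists and among the 5 genes highest against control. *Hif3a* was at 5.01, 8.66, 12.3 and 13.01 CPM on day 13 and 22.1, 21.9, 25.7 and 19.7 CPM under rapamycin, beside 2.95 to 5.83 CPM in the controls, so that rapamycin was higher than both (1.21 ± 0.26 over day 13, edgeR adjusted p = 0.00691). *Map3k6* was at 5.14, 5.89, 7.18 and 3.94 CPM under rapamycin, 2.4 on the log2 scale against control. Of 16 p53 target and apoptosis genes, 6 were lower under rapamycin than on day 13 (median log2 fold change -0.64, and -0.26 without day 13 mice A and B) and 3 higher than control, with a remaining share of 19.9% (14.8 to 22.8% when single mice were left out). The list level was 1.15, 1.12, 0.57 and 0.49 in day 13 mice A to D, and the share without mice A and B together was not calculated. *Cdkn1a*, the cell cycle inhibitor p21, was at 0.826, 1.27, 1.01 and 0.958 CPM in the controls, 29.3, 16.9, 3.04 and 4.34 CPM on day 13 and 3.33, 3.33, 3.87 and 2.68 CPM under rapamycin. The rapamycin mice were at the level of day 13 mice C and D and above every control (1.7 ± 0.17 against control, edgeR adjusted p = 3.81e-04). Its call against day 13 (-2.01) was lost without mice A and B (-0.16). *Gadd45b* and *Gadd45g*, which act in growth arrest and stress, were back at control (-2.71 and -2.13 against day 13, 0.07 and 0.1 against control).

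**Figure D3:**
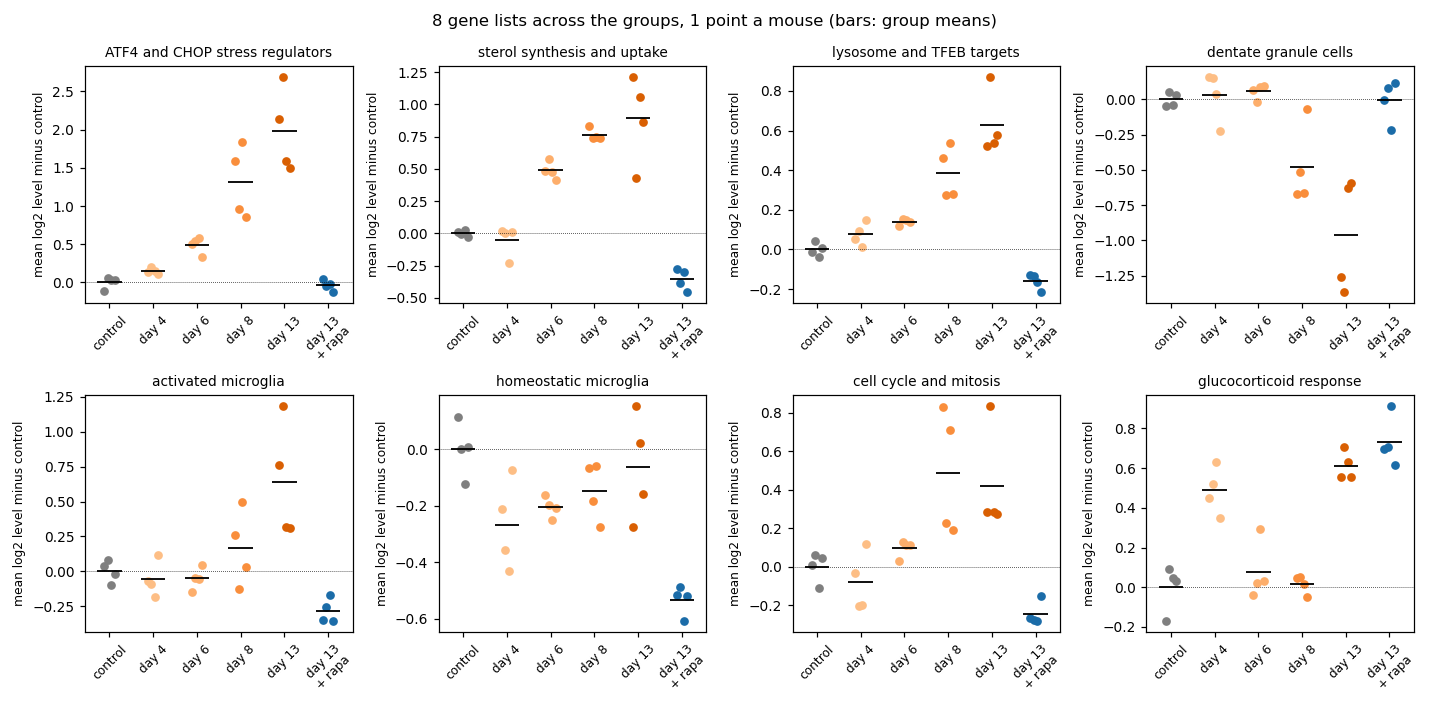
List level over the days after deletion in log2 units relative to control, with 1 point per mouse and lines at the group means, for the untreated mice on day 4, 6, 8 and 13 and the rapamycin mice on day 13. The ATF4 list climbs to day 13 and is near 0 under rapamycin, while the glucocorticoid list is high on day 4, near 0 on days 6 and 8 and high on day 13 with and without rapamycin.

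Large changes were also found in genes outside the lists. Among the 10 largest falls, *Flnc*, an actin cross-linker, was at 332, 209.7, 14.4 and 18.2 CPM on day 13 and 3.44, 3.798, 4.66 and 4.43 CPM under rapamycin (-5.12 ± 0.97, edgeR adjusted p = 0.00414), *Has2*, a hyaluronan synthase, had a log2 fold change of -5.03, and *Ifi202b*, a DNA sensor, of -6.97. Mice A and B carried these, and *Ifi202b* was not called without them (-1.28). *Fam187a* (-4.32) shares its position with another gene model, so its reads are uncertain. Among the 10 largest rises, *BC030499* was at 2.78, 2.96, 3.15 and 2.64 CPM on day 13 and 14.8, 12.1, 11.7 and 15.9 CPM under rapamycin (2.25 ± 0.14, edgeR adjusted p = 9.63e-05), beside 12.6 to 15.5 CPM in the controls. *Ogn*, a small leucine-rich proteoglycan that is also in the fibroblast list, was at 1.2, 0.836, 1.39 and 2.82 CPM on day 13 and 8.29, 8.24, 10.4 and 8.63 CPM under rapamycin (2.55 ± 0.33, edgeR adjusted p = 8.03e-04). *Gm5148*, *Sec1*, *Vwa5b1*, *Rtl3* and *Gmnc* had log2 fold changes of 2.65, 2.31, 2.21, 2.08 and 1.92, and *Card14* of 2.17, which was also above control (1.54). *Per3*, a clock gene, had a log2 fold change of 1.99 and overlaps another gene model. Time of day was not in the sources used here. Of the lowest genes against control, *Bfsp2*, a lens filament protein, was -1.57, *Lag3*, an inhibitory immune receptor, -1.43, and *Gbp4* -1.65, which may share reads with its close copies.

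The day 13 group was wider than the rapamycin group, and leaving out mice A and B, which had the strongest glial response, gave 3328 called genes against 5123 with all mice, 1577 of them higher and 1751 lower. Calls went from 17 to 16 among the tRNA synthetases, stayed at 22 among the sterol genes and went from 22 to 20 among the lysosomal genes. Reactive astrocyte calls went from 19 to 7 and ribosome biogenesis calls from 10 to 2. The test then had 2 mice against 4, and the share that power alone takes was not tested. Of the 163 named genes called, 128 were also called without mice A and B, and 127 kept the call with each of the 8 mice left out in turn.

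**Figure D4:**
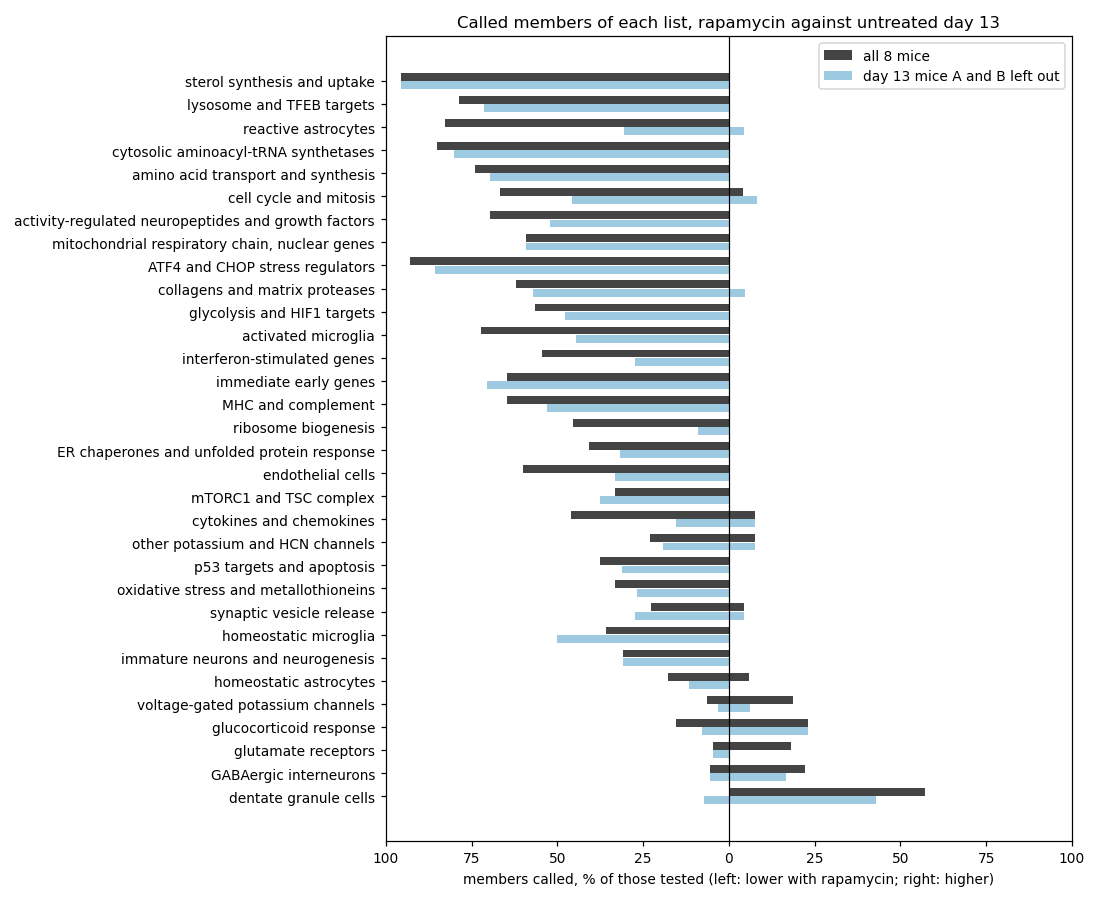
Percent of the tested list members called lower or higher under rapamycin than on day 13, with all 8 mice and without day 13 mice A and B. Sterol, lysosome and tRNA synthetase bars change little, and the reactive astrocyte bar falls from 19 to 7 of 23 members.

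Lists of other tissues were measured to see what else the dissection held. Of 10 choroid plexus genes, 1 was lower under rapamycin, *Prlr*, the prolactin receptor (25.1, 29.6, 8.84 and 21.5 CPM on day 13 and 3.64, 5.66, 11.5 and 3.37 CPM under rapamycin; not called without day 13 mice A and B), and the list level ran from -1.08 to 0.97 on day 13 and from -1.5 to 0.77 under rapamycin. Of 10 meningeal and fibroblast genes, 1 was higher and 2 lower, the higher one being *Ogn* and the lower ones *Col3a1* and *Dcn*, a proteoglycan (-1.06), whose call was lost with each of 4 single mice left out. Of 6 blood genes, 1 was lower, *Ptprc*, the leukocyte marker CD45 (-1.04), which microglia also express. Against control, 5 of the 6 were lower on day 13 and 3 under rapamycin. Of 12 genes of thalamus, cortex and striatum neurons, 1 was higher and 2 lower: *Prkcd* (0.9, lost without day 13 mouse B or rapamycin mouse D), the dopamine receptor *Drd1* (27.1, 22.8, 20.4 and 16.1 CPM on day 13, 3.78, 4.69, 5.87 and 5.62 CPM under rapamycin, -2.1 ± 0.18, edgeR adjusted p = 1.92e-04) and *Ppp1r1b*, which encodes DARPP-32 (-1.1). *Drd1* was high in all 4 day 13 mice, while the list level of this list overlapped between the groups. With *Ttr* as a covariate 4103 genes were called for rapamycin against day 13, beside 5123 without it, and the choroid plexus list levels of the groups overlapped.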

How the data were processed

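Hippocampal RNA of 24 mice in 6 groups of 4 was sequenced, and groups and replicate letters (A to D) were taken from the sample titles. The authors depleted rRNA, made strand-specific libraries, trimmed the reads with CutAdapt 1.16.5, aligned them with STAR 2.7.2b to GRCm38, counted them per GENCODE gene with featureCounts 1.6.4 and deposited these read counts without normalization. Per the submitters' processing notes only tool names and versions are given, so the strand setting is not given in the sources used here. Low counts were mostly even numbers, so both reads of a pair appear to have been counted, which makes counting error larger than the totals imply. Gene names came from GENCODE M21 on the same build, in which 55144 of 55385 identifiers were found. Overlapping and near-identical genes are uncertain: 34 of the 175 named genes share positions with another model on the same strand and 61 on the other.

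The 4 rapamycin mice were compared with the 4 untreated day 13 mice, and each group with the 4 controls. Each comparison was fitted on its own 8 mice in R 4.3.3 with edgeR 4.0.16 (quasi-likelihood test, filterByExpr, TMM), and p-values were adjusted by Benjamini-Hochberg. Calls needed an adjusted p under 0.05 together with a log2 fold change beyond 0.5 in either direction. Fold changes are given ± SE. For single values per mouse, two-sided exact permutation tests enumerated 70 arrangements, with 0.0286 as the smallest possible p. CPM used TMM factors, and list levels a pseudocount of 0.5 CPM. The 45 gene lists and the comparison were chosen with earlier results of these data known. They are described by counts and medians, with no test of a list.

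The genes named in the text are the 10 largest rises and 10 largest falls among called protein-coding genes with a mean of at least 1 CPM and no overlap between the groups, the 4 called members of largest change in each list (or the 2 most expressed where none was called), the 5 highest and 5 lowest against control by the same criteria, and Tsc1, Gfap, Aif1, Mbp, Pdgfra, Cldn5, Gad1, Prox1 and Wfs1. Some genes that this rule gives are not reported here. In simulated counts of rapamycin against day 13, 200 genes were given a 2-fold change. edgeR recovered 62% of them and called 1 unchanged gene among 23924, and DESeq2 1.42.0 recovered 79% and called 39 among 24274. The simulation changed far fewer genes than the 5123 called in the data, so these rates need not hold for this comparison.

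Alternatives tried were DESeq2, fits of 12 or 24 mice, DESeq2 size factors, other filters and thresholds, the replicate letter as a block, Xist as a covariate, thinned counts and each mouse left out. Leaving out day 13 mice A and B, a GC correction and Ttr as a covariate were added after the data were seen.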

Additional observations from a re-analysis of the deposited data

Results flagged for a closer look

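With 4 mice in each group, a gap of 1 mouse to its nearest neighbour was compared with the range of the group by Dixon's criterion. It was passed by 32 of 444 groups examined, where chance flags about 1 in 20. Rapamycin mouse D was the lowest of its group in list level for mTORC1 and TSC genes (-0.016), tRNA synthetases (-0.10) and glycolysis genes (-0.22), and the highest for cell cycle genes (-0.15) and oligodendrocyte precursors (-0.24). Rapamycin mouse C was highest for oxidative stress genes (0.028) and p53 targets (0.26). Day 13 mouse B was highest for lysosomal genes (0.87) and cell cycle genes (0.84).

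The other flagged values are single genes, in log2 CPM. In rapamycin mouse D they were *Bcas1* (6.72), *Bfsp2* (1.21), *Igfbp5* (7.66) and *Mbp* (10.6), all above the other 3 mice, and *C1qb* (3.22), *Cox5a* (4.43), *Ldha* (6.48) and *Pgam1* (5.54), all below them. *Cd44* was high in rapamycin mouse C (2.84), and *Rragd* was low (6.32) and *Sox4* (3.98) and *Trib3* (-0.13) high in rapamycin mouse A. In day 13 mouse B, *Cdk1* (0.95), *Ctsd* (7.78), *Gpnmb* (6.75) and *Lgals3* (2.68) were high and *Igfbp5* (5.47) low. In day 13 mouse D, *Gm5148* (1.22) was high and *Arsi* (3.52) and *Rheb* (6.397) were low. In day 13 mouse A, *Prkcd* (4.28) was high and *Pdgfra* (5.85) and *Rgs5* (6.48) were low. Genes of the lists differed from mouse to mouse together, so these flags are not independent.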

How the results depend on the processing

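Rapamycin against day 13 gave 5123 called genes, 1807 at a log2 fold change over 1, 3328 without day 13 mice A and B, and 3608 (without rapamycin D) to 6025 (without day 13 D) with each mouse left out. The other alternatives gave 4103 (*Ttr* as a covariate) to 7474 (no fold minimum), DESeq2 gave 5836, and a GC correction 4601 (1961 higher, 2640 lower). Day 13 against control (4101) gave 6696 with no fold minimum, 1459 over 1, 2504 without day 13 A and B, and 2800 to 5305 with each mouse left out. Rapamycin against control (352) gave 892 with no fold minimum, 83 over 1, 162 in the fit of 24 mice, 32 in the fit of 12 mice, and 235 to 348 with each mouse left out. The replicate block gave 4531, 3546 and 365 calls in these comparisons. The deviations of mice with the same letter in the day 13 and rapamycin groups correlated at -0.14 to 0.03, and 0 of 4 mice matched their own letter best. Between control and day 13 mice, letter D matched its own letter best (correlation 0.08). No pairing by letter was seen between day 13 and rapamycin mice, but with 4 mice a group this check cannot exclude one. Of 175 named fold changes under 3847 alternatives, 3552 kept the side of the threshold and the direction, 277 lost and 14 gained the call, and 4 changed sign: *Cspg4* (-0.12 without day 13 A and B, -0.011 without day 13 A, range with single mice left out -0.011 to 0.23), and *Hspb1* (0.40) and *Tsc1* (-0.031) without day 13 A and B. The causes were not tested. Of 900 list medians under alternatives, 868 moved by less than the spread between mice. Of 312 alternative remaining shares, 306 moved by less than the spread between mice, and 6 moved by more: ER chaperones -62.5% and endothelial cells -97.9% without control D, cytokines -40.8% without day 13 A, cell cycle -87.1% without day 13 B (and less far without control C), and activated microglia -61.2% without day 13 B. Detection of small differences in genes under about 1 CPM was not tested, and such differences may be missed.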
